A study of Homo sapiens with 12 samples.

Results

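The genes described here encode the enzymes of cholesterol and fatty acid synthesis and the regulators of that synthesis, 33 in all, and were found by their symbols among the 13001 genes of a count table from a transfected prostate cancer line. All 33 had a row. Polyadenylated RNA was sequenced from LNCaP (clone FGC) at passage 8, a human line from a lymph node metastasis of prostate cancer that depends on androgen signalling. The study, by its title, concerned the production of the LSD1+8a isoform by the splicing factor SRRM4 in neuroendocrine prostate cancer.

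All 12 libraries came from LNCaP cells grown in RPMI medium with fetal bovine serum and transiently transfected with Lipofectamine, with the medium changed after 6 hours. Each of the 4 groups had 3 libraries. The control group received an empty vector. The LSD1 group received a plasmid coding for LSD1, a demethylase of histone lysines whose gene is KDM1A, and the LSD1+8a group a plasmid for the isoform of LSD1 that includes the neural microexon 8a. The SRRM4 group received a plasmid for SRRM4, a splicing factor of neurons that favours microexon inclusion. The serum, which supplies lipoproteins, the line and the transfection were thus shared by all groups. The share of cells that took up plasmid and the time from transfection to harvest are not given in the sources used here.

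Cholesterol is made from acetyl-CoA through mevalonate, farnesyl pyrophosphate, squalene and lanosterol, and fatty acids are made from acetyl-CoA through malonyl-CoA. Many of these enzymes are transcribed under SREBP-1 and SREBP-2, membrane-bound precursors that SCAP carries from the endoplasmic reticulum to the Golgi for cleavage when sterol is low and that INSIG1 holds back when sterol is high. In prostate cancer cells androgen signalling is known to raise lipid synthesis, partly through SREBP.

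Promoter sequences of the same genes are shown because SREBP acts on them through short motifs. Windows of 300 bases (250 before to 50 after the start of the gene) in RefSeq's GRCh38.p14 were matched for 29 of the 33 genes by symbol, and ACAT2, FDFT1, SQLE and FASN were not matched. Each was searched on both strands for TCACNCCAC (a form of the sterol regulatory element, SRE), CACGTG (an E-box) and CCAAT (the CCAAT box, bound by NF-Y, which acts with SREBP at many promoters). The last letters of the SRE, CAC, can also begin an E-box, and its last C a CCAAT box. A match is a description of the sequence, not a binding site. In the stretches below, which lie upstream of the start and read 5′ to 3′ on the strand of the gene, capitals mark the matches. SREBF2 is shown for the SRE, INSIG1, HMGCS1, MVK and DHCR7 as genes higher with SRRM4, and ELOVL5 as the gene that was lower.
SREBF2, chr22:41832925-41833104, plus strand: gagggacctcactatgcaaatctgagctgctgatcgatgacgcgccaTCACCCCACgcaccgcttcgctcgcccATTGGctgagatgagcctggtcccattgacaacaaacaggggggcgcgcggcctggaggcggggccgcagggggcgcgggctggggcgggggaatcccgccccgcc
INSIG1, chr7:155297678-155297877, plus strand: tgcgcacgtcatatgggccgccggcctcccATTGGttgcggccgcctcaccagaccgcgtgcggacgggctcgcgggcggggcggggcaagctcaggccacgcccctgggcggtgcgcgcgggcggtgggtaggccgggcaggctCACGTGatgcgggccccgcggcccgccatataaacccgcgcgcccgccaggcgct
HMGCS1, chr5:43313413-43313592, minus strand: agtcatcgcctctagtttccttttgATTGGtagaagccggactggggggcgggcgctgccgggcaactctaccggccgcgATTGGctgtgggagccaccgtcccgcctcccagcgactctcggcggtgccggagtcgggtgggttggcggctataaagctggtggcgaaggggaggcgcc
MVK, chr12:109573574-109573793, plus strand: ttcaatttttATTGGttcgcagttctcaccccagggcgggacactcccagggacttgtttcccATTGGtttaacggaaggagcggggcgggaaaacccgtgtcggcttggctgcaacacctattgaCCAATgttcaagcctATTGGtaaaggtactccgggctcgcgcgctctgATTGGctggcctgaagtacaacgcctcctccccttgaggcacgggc
DHCR7, chr11:71448394-71448513, minus strand: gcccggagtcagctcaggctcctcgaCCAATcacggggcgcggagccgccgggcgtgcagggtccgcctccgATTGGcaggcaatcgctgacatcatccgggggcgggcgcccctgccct
ELOVL5, chr6:53348951-53349170, minus strand: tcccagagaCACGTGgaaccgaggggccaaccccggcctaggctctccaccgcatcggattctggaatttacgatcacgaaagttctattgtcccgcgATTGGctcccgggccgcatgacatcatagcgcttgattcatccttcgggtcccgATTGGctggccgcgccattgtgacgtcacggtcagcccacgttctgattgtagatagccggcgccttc

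Of the 29 promoters, that of SREBF2 alone held the SRE letters, against 1.15% of 27305 promoters in the table. A CCAAT box was present in 19 of the 29, or 65.5%, against 35.7% of all promoters and 37.2% of the 9040 promoters of genes in the count table. The E-box was present in 5, or 17.2%, against 7.43% of all promoters and 10.4% of those of genes in the count table. MVK held 5 CCAAT matches in its window, and HMGCS1, DHCR7 and ELOVL5 held 2 each. Among the genes called higher with SRRM4 below, 6 of the 10 matched held a CCAAT box, as did ELOVL5, called lower, and 12 of the 18 not called.

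In the empty-vector cells the levels of the 33 genes spanned from 402 TPM (a level corrected for transcript length and library size) to 6.45 TPM. The highest were FADS2, the delta-6 fatty acid desaturase, at 402 ± 34.7 TPM (SD, n = 3), and FASN, the fatty acid synthase, at 382 ± 15.3 TPM. These neighbours in the order did not differ beyond their spread. ELOVL5, an elongase of polyunsaturated fatty acids, followed at 324 ± 8.84 TPM, SREBF1 at 289 ± 14.5 TPM and SCD, the stearoyl-CoA desaturase, at 231 ± 17.2 TPM. Genes of both branches were interleaved below these. TM7SF2, a sterol C14 reductase, was highest among the cholesterol enzymes at 217 ± 5.34 TPM, with SQLE, the squalene epoxidase, and MSMO1, a sterol C4 methyl oxidase, lowest at 17.1 ± 0.234 and 16.6 ± 2.10 TPM. STARD4, a carrier of cholesterol between membranes, was the lowest of the 33.

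**Figure D1:**
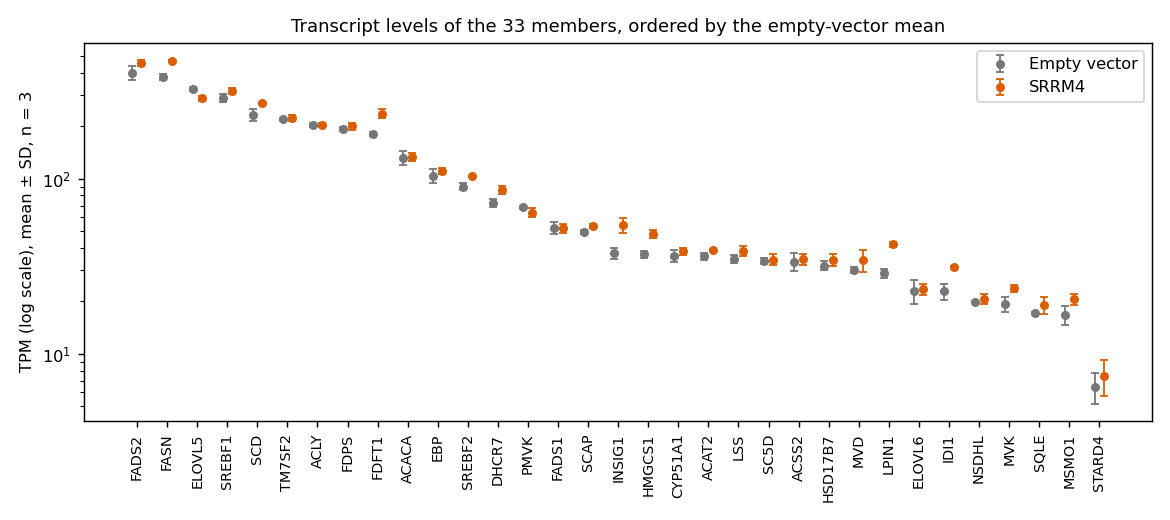
Level of each of the 33 genes in TPM on a log axis, with points for the mean and bars for the SD of 3 libraries, in the empty-vector (grey) and SRRM4 (orange) cells, ordered by the empty-vector mean. Levels run from 402 TPM for FADS2 to 6.45 TPM for STARD4 in the empty-vector cells, and FASN stood at 469 TPM in the SRRM4 cells against 382 TPM.

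With SRRM4, part of the cholesterol pathway, the 4 regulators among the 33 genes, FASN and the phosphatidate phosphatase LPIN1 rose by small amounts. ELOVL5 fell. Of the 33 genes, 12 were called higher than in the empty-vector cells and 1 lower. Here a called gene is one whose p from edgeR's quasi-likelihood test, after Benjamini-Hochberg adjustment over the 13001 genes, was under 0.05. The 12 are 36.4% of the 33 genes, where 4.47% of all genes were called higher. The 1 lower gene is 3.03% of them, where 3.22% of all genes were called lower. With upper-quartile factors the calls over all genes were 497 higher and 561 lower, in place of 581 and 418, and 2 of the 33 genes were called lower. The median log2 fold change of the 33 genes was 0.12, against -0.0011 over all genes, and 27 of the 33 (81.8%) lay above 0, as did 49.6% of all genes. Luminal prostate markers, summed over 12 genes, were lower in the same SRRM4 libraries, at 8333 to 8391 CPM against 9195 to 9386 CPM with the empty vector, and their part in the lipid genes' changes was not tested. No rise exceeded the 39.1% of LPIN1. Separate cultures for the libraries of a group are not stated in the labels, so each p reflects only library-to-library spread, possibly technical. In bulk RNA, fewer cells of a type and less RNA per cell cannot be told apart.

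**Figure D2:**
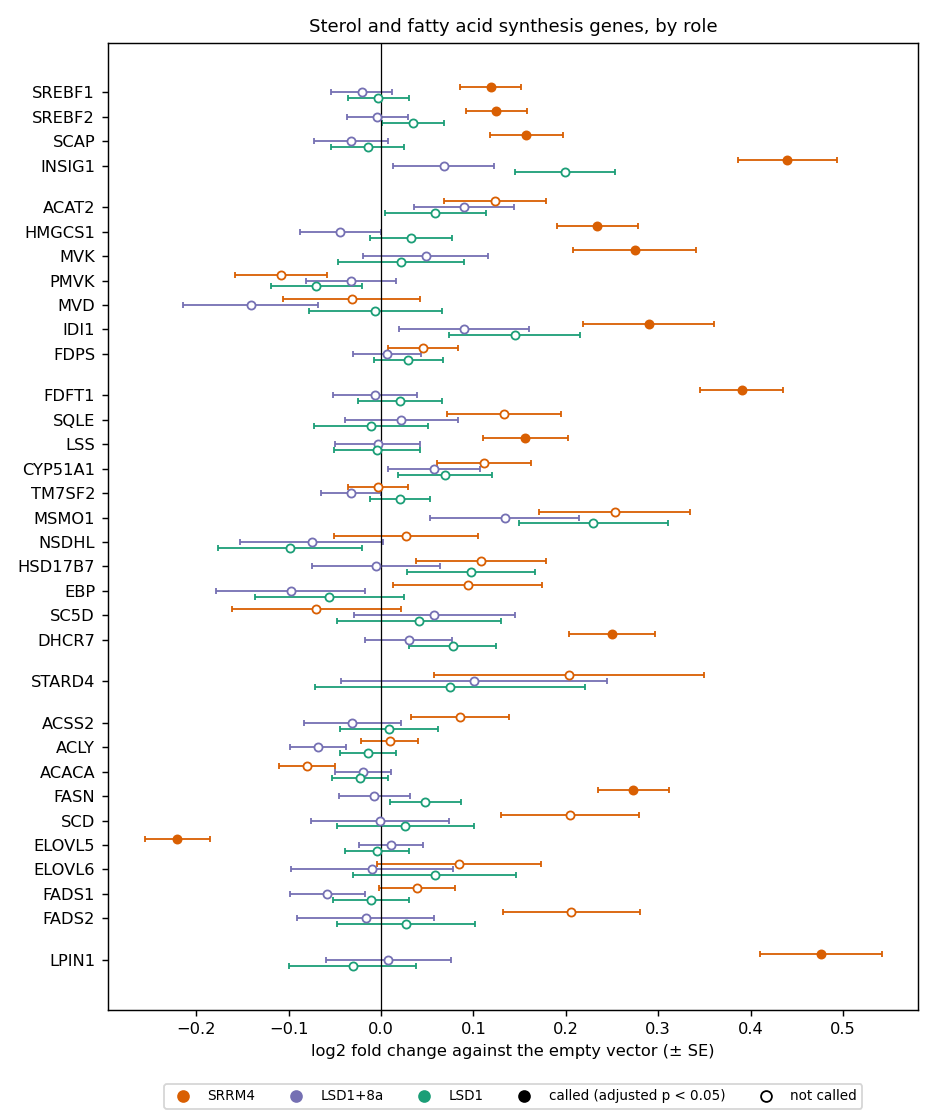
Log2 fold change of each gene against the empty vector (x axis, ± SE) for SRRM4 (orange), LSD1+8a (purple) and LSD1 (green), with the genes grouped by role from regulators at the top to LPIN1 at the bottom; filled points are called. The filled points are 12 SRRM4 values to the right of 0 and that of ELOVL5, at -0.22, to its left, and no LSD1 or LSD1+8a point is filled.

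All 4 regulators rose with SRRM4. INSIG1, the sterol-sensitive retention protein and itself a target of SREBP, was at 64.5, 55.3 and 59.1 CPM (counts scaled to library size with TMM factors) in the empty-vector libraries and at 77.4, 80.3 and 84.9 CPM in the SRRM4 libraries. The groups did not overlap, and the log2 fold change was 0.44 (SE 0.05, adjusted p = 3.17e-07), a rise of 35.6%. In the LSD1 libraries INSIG1 was at 71.0, 68.3 and 65.8 CPM and in the LSD1+8a libraries at 66.3, 61.1 and 59.7 CPM, below every SRRM4 library.

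The other regulators moved much less. SREBF2, which encodes SREBP-2 and held the SRE letters above, was at 329, 329 and 323 CPM with the empty vector and at 355, 355 and 359 CPM with SRRM4 (log2 fold change 0.12, SE 0.03, adjusted p = 0.0146). SREBF1, which encodes SREBP-1, was at 507, 505 and 504 CPM and at 554, 553 and 540 CPM (0.12, SE 0.03, adjusted p = 0.02). SCAP, the escort of both precursors, was at 128, 127 and 124 CPM and at 139, 144 and 140 CPM (0.16, SE 0.04, adjusted p = 0.00934). Every SRRM4 library lay above every empty-vector library for these 3 genes, by rises of 9.05%, 8.59% and 11.5%. Of 18 other analyses, SREBF1 lost its call in 6, those on the TPM scale and those without replicate 1 or 3 of the empty vector or replicate 1 or 2 of SRRM4 (adjusted p up to 0.259). SCAP lost it on the TPM scale and without SRRM4 replicate 2 (adjusted p = 0.057), and SREBF2, whose value was 0.20 on the TPM scale, without empty-vector replicate 3 (adjusted p = 0.0553) or SRRM4 replicate 3 (adjusted p = 0.0628).

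Of the 7 genes that lead from acetyl-CoA to farnesyl pyrophosphate, 3 rose and 4 were not called. HMGCS1, the HMG-CoA synthase, was at 72.0, 67.9 and 70.7 CPM with the empty vector and at 81.2, 84.1 and 82.4 CPM with SRRM4, a log2 fold change of 0.23 (SE 0.04, adjusted p = 0.000361). MVK, the mevalonate kinase, was at 28.6, 26.5 and 27.3 CPM and at 32.0, 33.9 and 33.7 CPM (0.27, SE 0.07, adjusted p = 0.00702). IDI1, the isopentenyl diphosphate isomerase, was at 30.3, 31.4 and 35.5 CPM and at 39.0, 39.1 and 40.8 CPM (0.29, SE 0.07, adjusted p = 0.00708). The groups did not overlap for any of these 3 genes. On the TPM scale the values of HMGCS1 and IDI1 were larger, 0.39 and from 0.44 to 0.46. MVK, which overlaps MMAB on the opposite strand, lost its call in DESeq2 (adjusted p = 0.0538) and on the TPM scale, and IDI1 without empty-vector replicate 1 (adjusted p = 0.0584).

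The 4 not called lie between or beside these steps. ACAT2, the acetoacetyl-CoA thiolase at the head of the pathway, had a log2 fold change of 0.12 (SE 0.06, adjusted p = 0.188). PMVK, the phosphomevalonate kinase that follows MVK, had -0.11 (SE 0.05, adjusted p = 0.203), with every SRRM4 library below every empty-vector library. MVD, the decarboxylase before IDI1, had -0.03 (SE 0.07), and FDPS, the farnesyl diphosphate synthase after it, 0.05 (SE 0.04). FDPS has 8 annotated pseudogenes, so its counts are uncertain. The called steps were thus separated by PMVK and MVD, which were not called.

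Of the 11 genes of the sterol branch from squalene to cholesterol, 3 rose and none fell. FDFT1, the squalene synthase that commits farnesyl pyrophosphate to sterol, was at 202, 190 and 202 CPM with the empty vector and at 256, 269 and 252 CPM with SRRM4. The log2 fold change was 0.39 (SE 0.04, adjusted p = 2.31e-06), a rise of 31.1%. DHCR7, the 7-dehydrocholesterol reductase of the last step, was at 135, 129 and 128 CPM and at 148, 158 and 160 CPM (0.25, SE 0.05, adjusted p = 0.000776). Neither gene's groups overlapped, and the LSD1 and LSD1+8a libraries stayed below the SRRM4 libraries for both, with the highest DHCR7 value among them at 146 CPM. LSS, the lanosterol synthase, was at 90.7, 91.8 and 95.4 CPM and at 99.9, 104 and 106 CPM (0.16, SE 0.05, adjusted p = 0.0309). DHCR7 lost its call on the TPM scale (adjusted p = 0.0825 at most). LSS lost it in 7 of the 18 other analyses: DESeq2 (adjusted p = 0.106), the TPM scale (0.444) and without replicate 1 or 2 of the empty vector or 2 or 3 of SRRM4.

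The other 8 sterol-branch genes were not called. MSMO1 came nearest, with 25.9, 21.5 and 26.4 CPM against 30.9, 27.8 and 29.1 CPM and a log2 fold change of 0.25 (SE 0.08, adjusted p = 0.0505). Its groups did not overlap. SQLE had a log2 fold change of 0.13 (SE 0.06), from SRRM4 libraries at 37.3, 40.6 and 45.4 CPM against 36.9, 37.1 and 38.3 CPM, which overlapped. CYP51A1, the lanosterol demethylase, had 0.11 (SE 0.05) and has 3 annotated pseudogenes, and HSD17B7, a sterol ketoreductase with 2 pseudogenes, 0.11 (SE 0.07). EBP, a sterol isomerase, had 0.09 (SE 0.08). NSDHL, the sterol C4 decarboxylase, had 0.03 (SE 0.08), TM7SF2, which shares bases with VPS51 in the annotation, -0.0034 (SE 0.03), and SC5D, the lathosterol oxidase, -0.07 (SE 0.09). STARD4, at under 12 CPM in every library, had 0.20 with an SE of 0.15 and was not called.

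In fatty acid synthesis FASN and ELOVL5 moved in opposite directions, and the other 7 of 9 genes were not called. FASN was at 1991, 1914 and 1915 CPM with the empty vector and at 2310, 2360 and 2362 CPM with SRRM4, a log2 fold change of 0.27 (SE 0.04, adjusted p = 1.83e-05). The groups were far apart against their spread, with SRRM4 above every library of the other groups, the highest of which was at 2090 CPM. ELOVL5 was at 544, 527 and 551 CPM and fell to 451, 471 and 470 CPM, a log2 fold change of -0.22 (SE 0.04, adjusted p = 4.13e-05). Every SRRM4 library lay below all 9 others. The call of ELOVL5 was lost on the TPM scale (adjusted p = 0.0638 at most).

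SCD was at 978, 874 and 992 CPM with the empty vector and at 1074, 1104 and 1099 CPM with SRRM4, and FADS2 at 696, 640 and 690 CPM and at 742, 815 and 781 CPM. Neither pair of groups overlapped, and the log2 fold changes of 0.20 (SE 0.07, adjusted p = 0.154) and 0.21 (SE 0.07, adjusted p = 0.151) were not called. FADS2 overlaps FADS1 and FEN1 in the annotation, so its reads are not certain to be its own. ACACA, the acetyl-CoA carboxylase of the committed step, had -0.08 (SE 0.03, adjusted p = 0.106), with all 3 SRRM4 libraries below the 3 empty-vector libraries. ACLY, the ATP citrate lyase that supplies cytosolic acetyl-CoA, had 0.0093 (SE 0.03) and ACSS2, an acetyl-CoA synthetase, 0.09 (SE 0.05). ELOVL6, a fatty acid elongase, had 0.08 (SE 0.09), and FADS1, the delta-5 desaturase, 0.04 (SE 0.04). ACACA, which makes the malonyl-CoA that FASN uses, was thus not among the called genes.

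LPIN1, a phosphatidate phosphatase on the way to triglyceride, had the largest rise of the 33 genes. It was at 81.1, 70.4 and 79.3 CPM with the empty vector and at 101, 110 and 110 CPM with SRRM4, a log2 fold change of 0.48 (SE 0.07, adjusted p = 0.000127). All SRRM4 libraries lay above the other 9, the highest of which was an LSD1+8a library at 85.8 CPM. LPIN1, INSIG1, FDFT1, FASN and HMGCS1 kept their calls in all 18 other analyses of this comparison. Among the 18, the fit with no filter repeated the main fit and so could not differ from it.

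**Figure D3:**
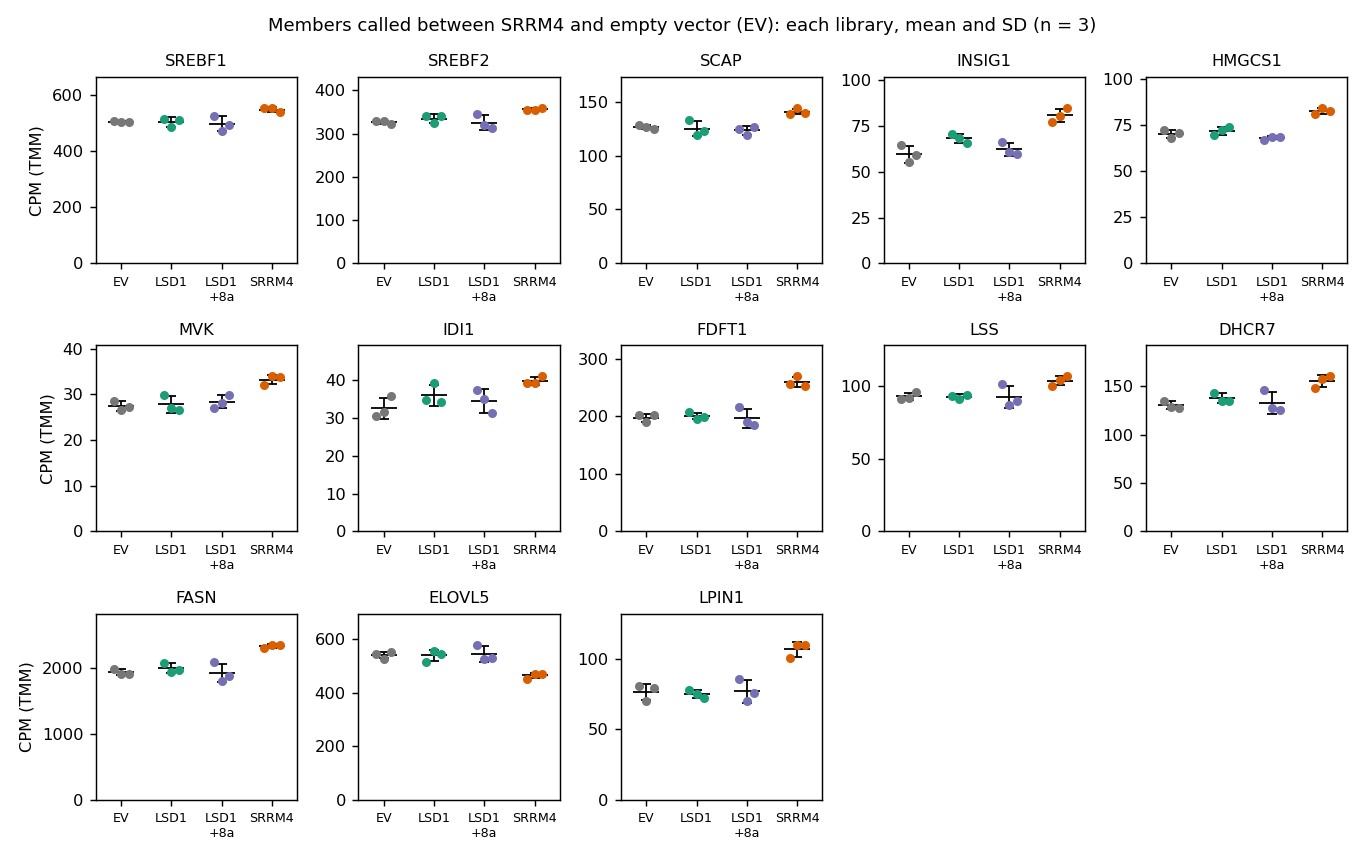
CPM of the 13 genes called between SRRM4 and the empty vector, each panel from 0, with a point for each library and the mean and SD of each group of 3 (EV, LSD1, LSD1+8a, SRRM4). In each panel the SRRM4 points clear all empty-vector points, and in ELOVL5, at 451 to 471 CPM, they lie beneath.

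Across the list, 17 of the 33 genes (51.5%) had all 3 SRRM4 libraries above the 3 empty-vector libraries in CPM, where 13% of all genes did. The 3 genes with all SRRM4 libraries below were ELOVL5, PMVK and ACACA, or 9.09%, where 12.3% of all genes lay below. In the authors' deposited table, 10 of the 33 genes were higher with SRRM4 and 1 lower at the authors' adjusted p under 0.05, out of 328 higher and 235 lower over all 13001 genes of the authors' deposited table. Of the 13 called genes, SREBF1, SREBF2, HMGCS1, MVK, IDI1, FDFT1, LSS and LPIN1 have an annotated gene on the opposite strand, whose reads cannot be told apart without strand.

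The 33 genes together took 0.771% to 0.813% of the counts in the empty-vector libraries and 0.873% to 0.895% in the SRRM4 libraries. Their summed level was 3312 to 3540 TPM with the empty vector, 3525 to 3573 TPM with LSD1, 3375 to 3723 TPM with LSD1+8a and 3776 to 3836 TPM with SRRM4. The list varied within groups as well. In empty-vector replicate 2 only 6 of the 33 genes lay above the empty-vector mean, and in LSD1+8a replicate 1 28 did, against 8 in each of the other LSD1+8a libraries and 26, 27 and 26 in the SRRM4 libraries.

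**Figure D4:**
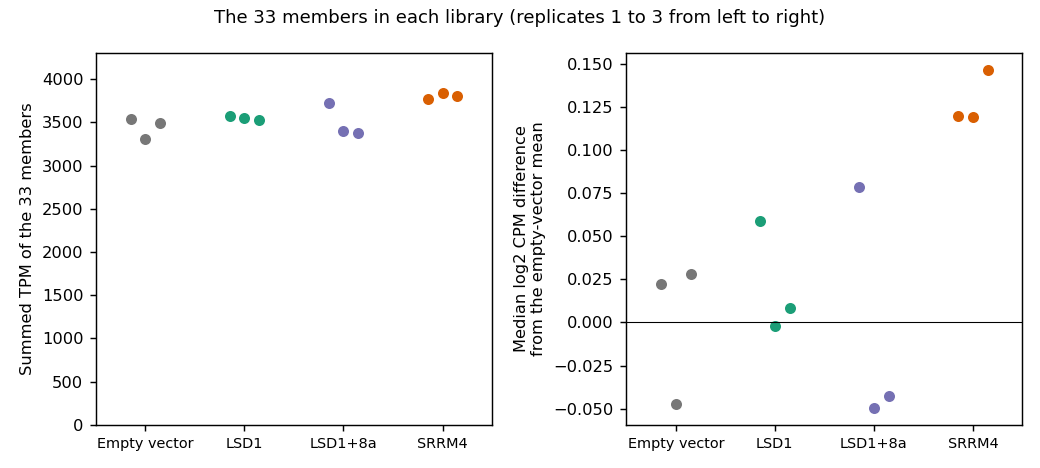
Left, summed TPM of the 33 genes in each library; right, median over the 33 genes of the log2 CPM difference from the empty-vector mean, with 1 point per library in 4 groups. The 3 SRRM4 libraries are highest in both panels, and LSD1+8a replicate 1, at 3723 TPM, stands above the other LSD1+8a libraries, at 3403 and 3375 TPM.

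Neither LSD1 plasmid changed a gene of the list at the adjusted threshold. With LSD1+8a, edgeR called 0 of 33 genes higher and 0 lower, where 0.285% and 0.0615% of all genes were called, and DESeq2 and limma-voom also called 0. The median log2 fold change was -0.0052, and it ran from -0.05 without LSD1+8a replicate 1 to 0.02 without LSD1+8a replicate 2, through 0. In edgeR 1 gene had an unadjusted p under 0.05, ACLY with -0.07 (adjusted p = 0.68). At that unadjusted p 3.59% of all genes were higher and 3.23% lower. With LSD1, edgeR, DESeq2 and limma-voom again called 0 higher and 0 lower, where 0.0462% and 0.0538% of all genes were called in edgeR. The median was 0.02, with 1 library left out it ran from -0.0066 (without empty-vector replicate 2) to 0.03 (without empty-vector replicate 1), and 3 genes had an unadjusted p under 0.05: INSIG1 with 0.20 (adjusted p = 0.344), MSMO1 with 0.23 (adjusted p = 0.656) and IDI1 with 0.15 (adjusted p = 0.842). All of them were above 0, but none passes the adjustment over 13001 genes. KDM1A, the gene on these plasmids, was at 94.3 ± 0.828 CPM with the empty vector, 540 ± 40.5 CPM with LSD1 and 2268 ± 316 CPM with LSD1+8a, so KDM1A was raised in both groups, more in the second. Counts per gene do not separate the isoform with exon 8a from LSD1 without it. It stood at 96.3 ± 4.06 CPM with SRRM4. SRRM4 itself had no row among the 13001 genes, so the label of the SRRM4 group could not be checked in this way.

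Between the isoforms, LSD1+8a against LSD1, edgeR, DESeq2 and limma-voom called 0 of the 33 genes higher and 0 lower, where 0.208% and 0.115% of all genes were called in edgeR. The median was -0.03 (from -0.08 to -0.0037 with 1 library left out, the lowest without LSD1+8a replicate 1 and the highest without LSD1+8a replicate 3). INSIG1, at -0.13 (adjusted p = 0.663), was the 1 gene with an unadjusted p under 0.05. At that unadjusted p 2.96% of all genes were higher and 3.25% lower. These comparisons and those with SRRM4 share libraries, the 3 empty-vector ones among them, so they are given side by side and not as independent evidence.

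Set against the LSD1 plasmids in place of the empty vector, SRRM4 again stood higher for most of the 12 genes. Against LSD1+8a, 11 of the 33 were called higher and 1 lower, where 4.42% and 3.17% of all genes were called, and the median was 0.12. Against LSD1, 10 were called higher and 1 lower, where 4.38% and 2.67% of all genes were called, with a median of 0.12. The genes were the 12 named above without IDI1 in the first case (0.20, adjusted p = 0.0778) and without IDI1 and SREBF2 in the second (0.14, adjusted p = 0.233, and 0.09, adjusted p = 0.0994), and the lower gene was ELOVL5 in both, at -0.23 and -0.22. LPIN1 was 0.47 (SE 0.07) against LSD1+8a and 0.51 (SE 0.07) against LSD1, and FDFT1 0.40 (SE 0.04) and 0.37 (SE 0.05). INSIG1 was 0.37 (SE 0.05) and 0.24 (SE 0.05), and its 3 LSD1 libraries all lay above the 3 empty-vector libraries. Against LSD1+8a the count of higher genes was 7 without LSD1+8a replicate 2, of 371 over all genes, and 16 without LSD1+8a replicate 1, of 590 (median 0.18). Against LSD1 it was 5 without LSD1 replicate 2, of 374, and 6 without SRRM4 replicate 2, of 329. The median against LSD1 was 0.07 without SRRM4 replicate 3.

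The other genes of lipid metabolism from 6 lists of related functions (94 listed, 72 with a row) were mostly not called with SRRM4. Of the 72, 5 were higher (6.94%) and 2 lower (2.78%), where 4.47% and 3.22% of all genes were called. Their median log2 fold change was 0.02. These lists, like the 33 genes, were drawn up with earlier results of these data known. FAXDC2, a member of the sterol desaturase family, went from 10.3, 7.90 and 9.97 CPM to 17.6, 23.0 and 17.2 CPM (1.03, SE 0.13, adjusted p = 1.05e-05). The groups of libraries did not overlap.

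SCARB1, a receptor of high-density lipoprotein (0.18, adjusted p = 0.0088), ACSL1, an acyl-CoA synthetase (0.15, adjusted p = 0.0107), and PCYT2, of phosphatidylethanolamine synthesis (0.19, adjusted p = 0.0224), also rose. ERLIN2 and SYVN1, which act in the degradation of proteins at the endoplasmic reticulum, fell by 0.13 and 0.15 on the log2 scale (adjusted p = 0.0263 and 0.0279). Both belong to a list of 13 further genes of SREBP processing, of which 10 lay below 0 with SRRM4 (median -0.05). The share of all genes above 0 was 49.6%, with a median of -0.0011. In that list 0 genes were called higher and 2 lower, or 15.4%, where 3.22% of all genes were called lower. Of the 7 measured genes of the LXR and oxysterol list edgeR called none with SRRM4. An unadjusted p under 0.05 was found for 1 of them, where 10.8% of all genes were higher and 9.95% lower at that p. The smallest p belonged to ABCA1, a cholesterol exporter (0.53, SE 0.22, adjusted p = 0.144), and NR1H2, the LXR-beta receptor (0.08, SE 0.06, adjusted p = 0.498). With LSD1 or LSD1+8a edgeR called 0 of the 72 genes. At an unadjusted p under 0.05 it found 1 higher and 2 lower with LSD1 and 4 higher and 2 lower with LSD1+8a. Of all genes, 3.09% were higher and 2.8% lower at that p with LSD1, and 3.59% and 3.23% with LSD1+8a.

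Beside these results stand 2 features of the SRRM4 libraries. They were the shallowest, at 10.88 to 11.49 M counts against 11.66 to 13.57 M in the other groups, and after thinning of all libraries to 10876293 counts 13 of the 33 genes were called higher, of 544 over all genes. Of the 12 luminal prostate markers, all measured, 6 (50%) were called lower with SRRM4, where 3.22% of all genes were. The 1 called higher was the keratin KRT8 (0.12), or 8.33% of them, where 4.47% of all genes were. KLK3 fell by 0.23 on the log2 scale, ACPP by 0.45, and FOLH1, TMPRSS2 and STEAP2 by 0.15 each. Markers of other cells were few: KRT14, the 1 of 4 basal markers with a row, was at 2.16 to 3.07 CPM over all libraries, and COL1A1 and COL3A1, 2 of 5 fibroblast markers, summed to 22.4 to 32.0 CPM. No values for markers of adipocytes, hepatocytes or leukocytes are given here.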

How the data were processed

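Of the deposited tables for the 12 libraries, 1 held unnormalized gene counts and 1 TPM, per the file headers. The authors' comparison table held their log2 fold changes with a p-value and an adjusted p, per the file headers, for every plasmid relative to the control. Per the submitters' processing notes, STAR 2.5.3a, RSEM 1.2.31 and hg19 were used, without saying for which table. Whether counting used strand is not given in the sources used here, so reads of genes that overlap on opposite strands cannot be told apart.

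From the counts, edgeR 4.0.16 (R 4.3.3) fitted robust quasi-likelihood models with TMM factors and 1 mean per group, over all 13001 genes; filterByExpr removed 0. Adjusted p-values are Benjamini-Hochberg over all genes of a comparison. The SE is the size of the log2 fold change divided by the square root of the F statistic. Counts of replicate pairs differed beyond sampling noise, with chi-square over its degrees of freedom at 1.44 to 2.88. Totals of 10.88 to 13.57 M counts and 3 libraries a group set the precision, with a biological coefficient of variation of 2.98%. The other analyses used RLE and upper-quartile factors, KDM1A removed, no filter, a stricter filter, DESeq2 1.42.0 and limma-voom. They also used limma-trend on log2 TPM (limma 3.58.1, pseudocounts 1 and 0.1), a block for replicate number, 2 groups only, thinned counts, and each library left out. As filterByExpr removed 0 genes, the analysis with no filter repeated the main fit.

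The 33 genes and the lists of related genes and markers were chosen with earlier results of these data known. Named were all 33 genes, KDM1A, and from each other list of lipid genes and of markers the genes called against the empty vector, or otherwise the 2 with the smallest p; 2 genes that this rule names are not reported here. Overlapping genes and pseudogenes were read by name from GENCODE v29. The procedure was tested on simulated data.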

Additional observations from a re-analysis of the deposited data

How the results depend on the processing

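Most results kept their direction and their side of the threshold, and no value changed sign while called. For SRRM4 against the empty vector, limma-trend on TPM called 7 genes higher and 0 lower at both pseudocounts, where it called 254 and 73 of all genes at a pseudocount of 1, against 581 and 418 in edgeR. Upper-quartile factors called 2 lower, where 561 of all genes were. DESeq2 called 10 higher (328 of all genes), limma-voom 13 (582) and a fit of only the 2 groups 15 (571). For SRRM4 against LSD1+8a the TPM fits called 5 higher at both pseudocounts (134 of all genes at a pseudocount of 1). Leaving out 1 library gave 7 to 16, where 341 to 590 of all genes were called higher. For SRRM4 against LSD1 the TPM fits called 2 higher at both pseudocounts (128 of all genes at a pseudocount of 1). With 1 library left out the count was 5 to 9, where 329 to 461 of all genes were called higher. The cause of these changes was not tested. With a replicate block, 12 genes were called higher and 1 lower for SRRM4 against the empty vector (518 and 369 of all genes). Samples with the same number did not deviate together (correlations of -0.137 to 0.107), so the numbers were not taken to pair the libraries. With 3 libraries a group, the smallest rise called in edgeR for SRRM4 against the empty vector was that of SREBF1, 8.59%.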
